A study of Mus musculus with 6 samples.

Results

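The open chromatin around the fibrillar collagen genes Col1a1, Col1a2, Col3a1 and Col5a2 was followed in ATDC5 cells at 3 times of differentiation. Every listed peak whose summit fell in 1 of 3 genomic windows was taken: chr11:94750000-94900000 for Col1a1, chr6:4400000-4620000 for Col1a2 and chr1:45250000-45650000 for Col3a1 with its neighbour Col5a2. The 6 peak lists held 1527 such peaks of 1453803 in all. They were merged into regions of 501 bases around summits, which gave 328 regions of 384746. Of these, 136 lay in the Col1a1 window, 118 in the Col1a2 window and 74 in the Col3a1/Col5a2 window. A region is called strong here when a peak with its summit there was among the 50000 strongest of any library, which held for 102 of the 328 regions (40, 40 and 22 by window) and 78665 of all regions.

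ATDC5 is a mouse line, established from a teratocarcinoma, of chondrocyte precursors that form cartilage-like cultures. ATAC-seq uses the transposase Tn5 to cut and tag open chromatin. Cells were spotted in dense droplets, left to attach, and differentiated with beta-glycerophosphate and ascorbate phosphate. The groups are Day0, Day3 and Day10, with 2 libraries each, and the label of every library also reads control; all groups share the cell line, and no cell was given another agent in the labels. The lists hold no expression values, so the precursor state could not be checked against marker transcripts.

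Fibrillar collagens are made as procollagen chains that fold into triple helices, are trimmed outside the cell and assemble into cross-linked fibrils. Col1a1 and Col1a2 encode the chains of type I collagen, the main fibril of skin, tendon and bone. Col3a1 encodes type III collagen, which joins type I in extensible tissues, and Col5a2 encodes a chain of type V collagen, a minor component on which fibrils nucleate. Mesenchymal precursors and perichondrial cells make these collagens, whereas the fibrils of mature cartilage are built mainly of type II collagen. Ascorbate is a cofactor of the enzymes that hydroxylate procollagen.

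RefSeq (GRCm38.p6) gives a promoter for 2 of the 4 genes, Col1a2 and Col3a1. The 250 bases before each gene start are shown because they are the reference sequences of the pair of genes that could be matched, and they differ in base composition. Capitals mark matches, on either strand, to a set of short motifs spelled out below the sequences.
Col1a2 promoter, plus strand: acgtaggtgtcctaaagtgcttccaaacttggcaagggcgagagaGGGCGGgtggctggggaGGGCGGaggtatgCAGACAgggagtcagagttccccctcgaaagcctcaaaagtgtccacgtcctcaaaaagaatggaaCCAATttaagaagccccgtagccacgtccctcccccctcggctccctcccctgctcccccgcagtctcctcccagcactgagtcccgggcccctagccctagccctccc
Col3a1 promoter, plus strand: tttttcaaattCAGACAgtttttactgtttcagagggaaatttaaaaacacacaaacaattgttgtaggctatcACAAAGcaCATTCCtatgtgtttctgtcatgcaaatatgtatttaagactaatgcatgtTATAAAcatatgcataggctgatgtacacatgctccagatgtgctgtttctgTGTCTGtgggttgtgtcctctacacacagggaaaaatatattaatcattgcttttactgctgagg

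The Col1a2 promoter had a GC content of 62.0% and the Col3a1 promoter 35.2%, against a median of 52.4% over 32851 promoters of the same length. In the Col1a2 sequence the capitals are 2 copies of GGGCGG, bound by Sp1 (in 32.7% of all promoters), CAGACA, a SMAD motif (17.1%), and CCAAT, the CCAAT box (33.8%). In the Col3a1 sequence they are TATAAA, the letters of the TATA box (12.4%), ACAAAG, a SOX motif (16.5%), CATTCC, the reverse complement of the TEAD motif GGAATG (12.6%), and CAGACA with its reverse complement TGTCTG. The TATAAA match starts at -117 from the gene start, and its use as a TATA box was not tested. These 250 bases of either gene hold no match to TGANTCA (AP-1, 6.75% of promoters), TGTGGT (RUNX, 14.0%), ACAATG (SOX, 10.7%) or CAGCTG (an E-box, 13.0%). No listed motif overlaps another in these 2 sequences. The matches are descriptions of letters only, and the promoters were not placed on the peaks, whose positions are read as GRCm39.

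For the same reason no region was assigned to an exon, an intron or a gene start, and regions are given by position and by distance from the start of their window. Each window can hold regions of other genes. In the RefSeq order Col1a1 lies beside Sgca, Col1a2 is followed by Casd1 after a pair of predicted genes, and Col3a1 lies beside Col5a2. Regions of the Col3a1/Col5a2 window could not be divided between those genes.

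The peak lists held between 164320 and 389677 peaks on the assembled chromosomes. The Day10 lists were the longest, and their estimated depth relative to Day0 replicate 1 was 1.96 in each, against 1.13 and 1.11 in the Day3 libraries. Their largest fold over background was 65.7 and 67.4, against 95.0 to 97.3 in the other libraries, so the fold scale of the strongest peaks was narrower at Day10. Peak names in the Day3 lists contain the word lysis, which the labels do not explain; a difference in how those libraries were made and the day cannot be told apart. Ranks within a library are therefore given beside the folds for part of the regions below. The part of depth in the differences was not tested. Each value rests on 2 libraries a day, described by the labels as independent biological replicates, and p-values measure only the spread between these libraries.

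In each library the collagen windows held many listed peaks, and the order of the days depended on the measure. The windows together held 221 and 225 listed peaks at Day0, then 206 and 201 at Day3, then 340 and 334 at Day10. Per 100000 peaks of the list these were 134.5 and 136.6 at Day0, then 116.1 and 113.7 at Day3, then 89.3 and 85.7 at Day10. The raw number was thus highest and the number relative to list length lowest in the Day10 libraries, whose lists were longest.

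Among the 50000 strongest peaks of each library, which sets the lists to 1 length, 78 and 74 fell in the windows at Day0, then 61 and 66 at Day3, then 64 and 60 at Day10. The Col1a1 window held 32 and 32 at Day0, then 26 and 29 at Day3, then 31 and 28 at Day10. In the Col1a2 window there were 30 and 27, then 26 and 26, then 22 and 23. The Col3a1/Col5a2 window went from 16 and 15 at Day0 to 9 and 11 at Day3 and 11 and 9 at Day10. Both Day0 libraries lay above all 4 later libraries in each window. With 2 libraries against 2, an exact permutation test cannot give a two-sided p under 0.33, and none was run on these counts.

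**Figure D1:**
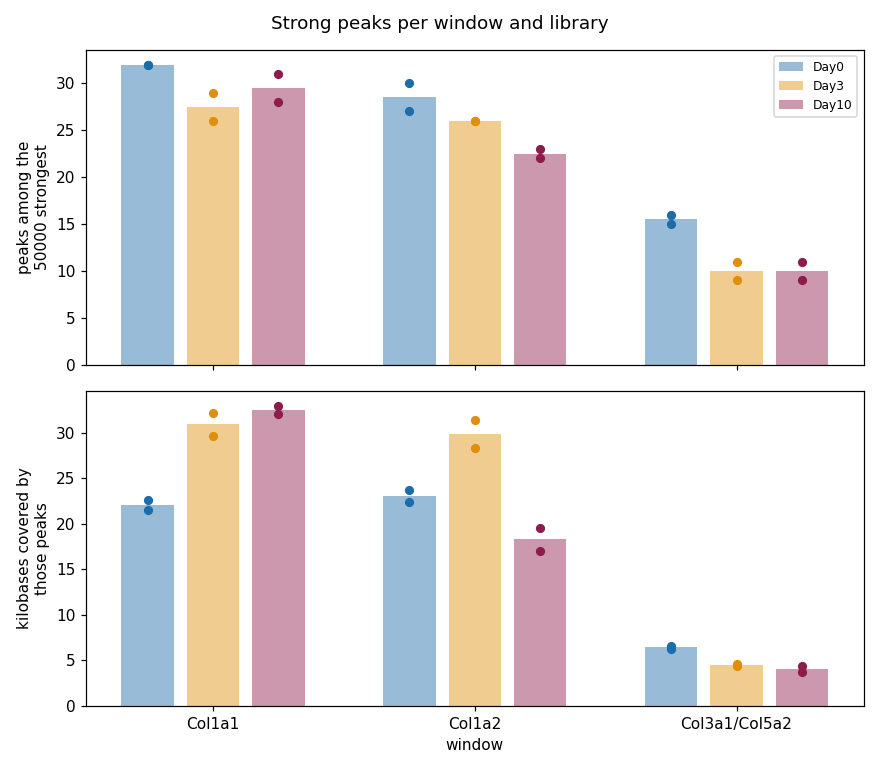
Peaks among the 50000 strongest of each library (upper panel) and kilobases those peaks cover (lower panel) in each collagen window. Bars are means of 2 libraries and points are the libraries: the Col1a1 window had the fewest peaks on average at Day3 (26 and 29) yet covered more bases there than at Day0.

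The bases covered by these strongest peaks followed another order. In the Col1a1 window they were 22595 and 21536 at Day0, then 29663 and 32176 at Day3, then 32112 and 32988 at Day10. In the Col1a2 window they were 23708 and 22353 at Day0, then 31407 and 28311 at Day3, then 17027 and 19593 at Day10. The Col3a1/Col5a2 window had 6562 and 6295, then 4337 and 4551, then 4349 and 3752 bases. Over the genome the 50000 strongest peaks covered 32.94 and 33.17 megabases at Day0, then 36.47 and 36.12 at Day3, then 40.41 and 42.0 at Day10.

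Peak width differed between days as well. Mean width of these peaks in the Col1a1 window was 706.1 and 673.0 at Day0, then 1140.9 and 1109.5 at Day3, then 1035.9 and 1178.1 at Day10. In the Col1a2 window it was 790.3 and 827.9, then 1208.0 and 1088.9, then 774.0 and 851.9 bases. Over the genome it was 658.7 and 663.4, then 729.4 and 722.5, then 808.3 and 840.1 bases. The widest peak of all 3 windows was chr6:4533886-4538120 in Day3 replicate 1, 4235 bases at a fold of 23.4. The widest peak of the Col1a1 window, chr11:94838060-94841389 in Day3 replicate 2, spanned 3330 bases at a fold of 12.8. In the Col3a1/Col5a2 window mean widths stayed between 395.4 and 481.9 bases in all 6 libraries, below the genome-wide mean of every library.

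Most strong regions of Day0 were still strong later. Of the 102 strong regions, 51 were among the 50000 strongest in all 6 libraries by overlap (50.0%, against 39.7% of all strong regions): 27 of Col1a1, 20 of Col1a2 and 4 of Col3a1/Col5a2. Of 74 regions strong in both Day0 libraries, 61 were still so in both Day3 libraries (82.4%, against 83.2% over the genome) and 51 in both Day10 libraries (68.9%, against 66.7%). These shares lie near the genome-wide shares. By window, 27 of 32 such Col1a1 regions, 20 of 28 such Col1a2 regions and 4 of 14 such Col3a1/Col5a2 regions were strong at Day10.

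The remainder fell between the limits or out of range, where out means a rank past 100000, or no peak, in both libraries of the later day. At Day3, 13 of the 74 were between (17.6%, against 16.0% over the genome) and 0 were out (against 0.855%). At Day10, 12 were between (16.2%, against 20.2%) and 11 were out (14.9%, against 13.0%), the latter being 4 of Col1a1, 4 of Col1a2 and 3 of Col3a1/Col5a2.

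Listing itself differed between days. Of the 328 regions, 172 had a peak in all 6 libraries (52.4%, against 29.8% over the genome). Another 64 were listed in both Day10 libraries and in no other (19.5%, against 32.6%), and 23 in both Day0 libraries and in no Day10 library (7.01%, against 5.15%). Of those 23, 16 lay in the Col3a1/Col5a2 window, 5 in the Col1a2 window and 2 in the Col1a1 window.

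**Figure D2:**
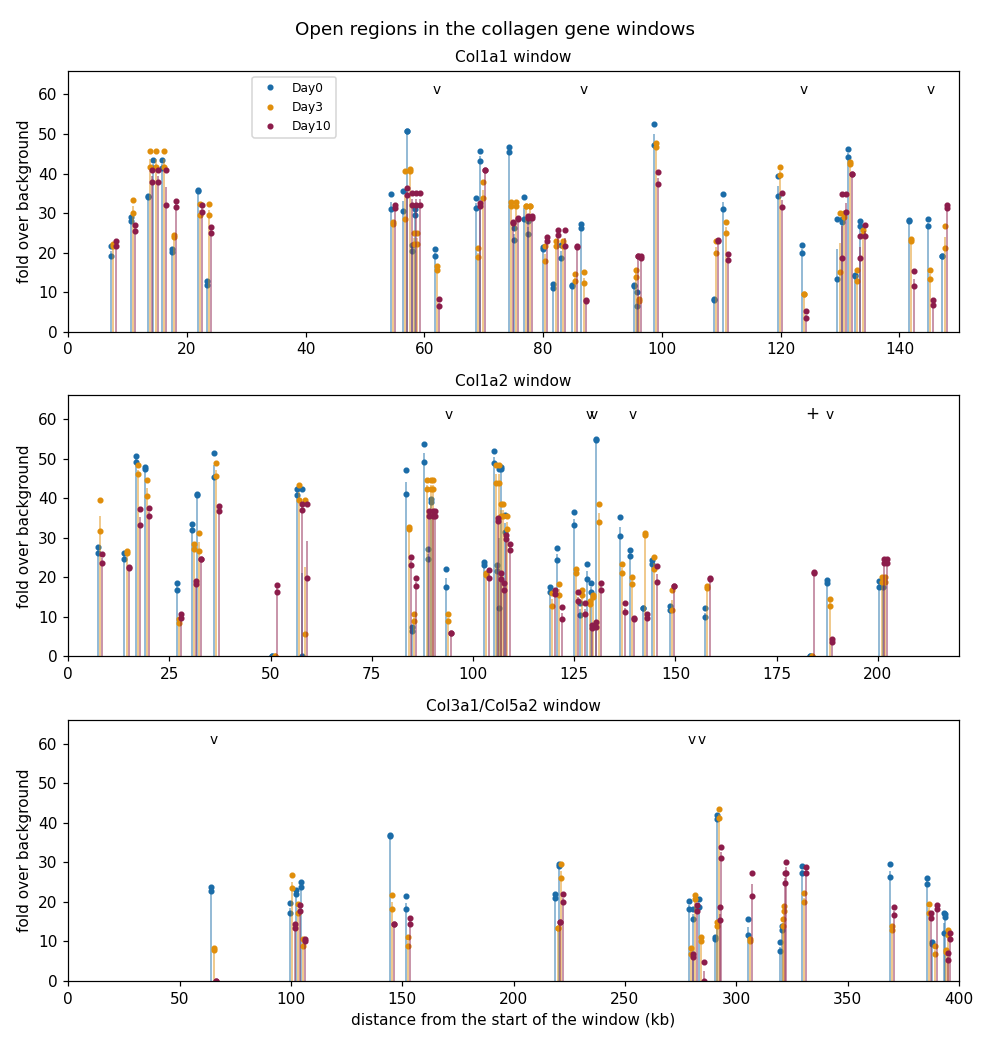
Fold over background of the strong regions along the 3 collagen windows, by distance in kb from the window start. Points are libraries, lines reach the mean of the day, a library without a peak is drawn at 0, and v and + mark regions called lost or gained in any comparison, with 4, 5 and 3 lost regions in the windows from top to bottom.

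In the Col1a1 window the 5 regions with the best mean rank lay at 14.7, 57.5, 69.8, 99.0 and 131.7 kb. The region chr11:94764483-94764983 (14.7 kb) had folds of 41.4 and 43.3 at Day0, then 41.7 and 45.6 at Day3, then 37.9 and 40.9 at Day10. Its ranks were better at Day10, at 4733 and 2903 against 9256 and 8131 at Day0. The last of the 5 regions, chr11:94881487-94881987, had folds of 44.3 and 46.2, then 42.8 and 42.3, then 39.8 and 40.0. Its fold was lowest at Day10 while its rank was best there, at 3051 and 3637 against 6730 and 5803 at Day0. Neither region passed the test between Day10 and Day0, with log2 differences of -0.03 (SE 0.06, limma adjusted p = 0.71) and -0.11 (SE 0.05, limma adjusted p = 0.10).

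Among these 5, the strongest at Day0 by rank in replicate 1 was chr11:94807284-94807784 (57.5 kb). Its folds were 50.7 and 50.8 at Day0, then 41.1 and 40.6 at Day3, then 35.0 and 32.1 at Day10, without overlap between days. It was lower at Day10 than at Day0 by limma (log2 difference -0.52, SE 0.06, adjusted p = 0.00074), and its ranks went from 2611 and 2952 to 8055 and 13323. The region at 99.0 kb, chr11:94848792-94849292, had 47.2 and 52.6 at Day0, then 47.8 and 46.7 at Day3, then 37.4 and 40.4 at Day10. Its ranks overlapped between those days, with 4630 and 2116 at Day0 against 5240 and 3253 at Day10. Its Day10 difference from Day0, -0.28 (SE 0.07, limma adjusted p = 0.011), missed the threshold without Day10 replicate 1 (adjusted p = 0.098) and without Day10 replicate 2 (adjusted p = 0.056), and was -0.08 under quantile normalization (adjusted p = 0.32). The region at 69.8 kb, chr11:94819576-94820076, had 43.1 and 45.6, then 33.9 and 37.8, then 40.8 and 40.9, and passed in no comparison. Its ranks were 7691 and 6214 at Day0 and better at Day10, at 2361 and 2904.

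In the Col1a2 window the 5 regions of best mean rank were lower in fold at Day10 than at Day0, a call made for 41.3% of all tested strong regions (median log2 difference -0.13). That share covers strong regions of every rank, whereas these 5 had mean ranks from 4301 to 5568. The fold scale of the strongest peaks was narrower at Day10, and its part in these differences was not tested. The region chr6:4505409-4505909 (105.7 kb) had folds of 48.9 and 52.0 at Day0, then 43.9 and 48.4 at Day3, then 34.1 and 34.9 at Day10. Its ranks were 3699 and 2557, then 3751 and 1888, then 9735 and 9666, so both measures put Day10 lowest. The log2 difference was -0.47 (SE 0.06, limma adjusted p = 0.0011) against Day0 and -0.45 (SE 0.06, adjusted p = 0.002) against Day3.

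The other Col1a2 regions of this rank had like differences from Day0 at Day10. They were -0.43 for chr6:4417076-4417576 (17.3 kb), -0.30 for chr6:4419121-4419621 (19.4 kb), -0.30 for chr6:4436391-4436891 (36.6 kb) and -0.43 for chr6:4488260-4488760 (88.5 kb). Their limma adjusted p values lay between 0.00099 and 0.016. At 19.4 kb the values of Day0 replicate 2 and of both Day10 libraries come from overlapping peaks with summits outside the region. At 36.6 kb the ranks overlapped, with 6080 and 2857 at Day0 against 5010 and 7249 at Day10. The region at 36.6 kb missed the threshold without Day0 replicate 2 (0.064), without Day10 replicate 1 (0.075) and without Day10 replicate 2 (0.13). Under quantile normalization the adjusted p was 0.24 at 36.6 kb and 0.11 at 19.4 kb.

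In the Col3a1/Col5a2 window the best-ranked region was chr1:45541977-45542477 (292.2 kb). It had folds of 41.9 and 41.0 at Day0, then 41.1 and 43.4 at Day3, then 31.2 and 33.9 at Day10, so Day0 and Day3 overlapped and Day10 lay below both. The log2 difference of Day10 was -0.28 (SE 0.06, limma adjusted p = 0.0071) from Day0 and -0.41 (SE 0.06, adjusted p = 0.002) from Day3. Both Day10 ranks, 13603 and 10480, were also worse than the Day0 ranks of 8668 and 10155. Under quantile normalization the Day10 difference from Day0 missed the threshold (adjusted p = 0.11).

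The region chr1:45395047-45395547 (145.3 kb) was lower on both later days. Folds were 36.7 and 37.0 at Day0, then 18.3 and 21.7 at Day3, then 14.4 and 14.4 at Day10, and ranks were 14066 and 14340, then 37972 and 30831, then 64937 and 65203. Both later days were lower than Day0 by limma, at -0.77 (SE 0.11, adjusted p = 0.0033) for Day3 and -1.28 (SE 0.11, adjusted p = 0.00016) for Day10. A neighbour in the list, chr1:45571186-45571686 (321.4 kb), moved the opposite way. Its folds were 12.8 and 13.9, then 17.8 and 18.9, then 27.3 and 30.2, and the Day10 difference from Day0 was 1.18 (SE 0.10, limma adjusted p = 0.00018). Beside it, chr1:45570574-45571074 (320.8 kb) had 7.6 and 9.8, then 13.9 and 15.6, then 24.9 and 27.4, a difference of 1.68 (SE 0.15, adjusted p = 0.00023), the highest of its window in that comparison.

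The other regions of best mean rank in this window were chr1:45471002-45471502 (221.3 kb) and chr1:45580257-45580757 (330.5 kb). The first had folds of 29.1 and 29.5, then 26.1 and 29.5, then 22.1 and 20.0, and its Day10 difference from Day0 was -0.41 (SE 0.10, limma adjusted p = 0.014), 0.058 without Day0 replicate 2 and 0.079 without Day10 replicate 2. The other had 29.1 and 27.2 at Day0, then 20.0 and 22.2 at Day3, then 27.3 and 28.8 at Day10. It was lower at Day3 than at Day0 (-0.30, SE 0.09, limma adjusted p = 0.036), a call that ended without any of Day0 replicate 1 (0.13), Day0 replicate 2 (0.066) or Day3 replicate 1 (0.12). It also ended with the replicate block (adjusted p = 0.058), quantile normalization (0.055), missing values at the lowest fold (0.05) and centring on strong regions (0.062).

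A region was called lost when, by summit and by overlap, it ranked within 50000 in both libraries of the earlier day and past 100000, or had no peak, in both of the later day; gained is the mirror image. Rank 100000 did not stand for the same fold on every day. At Day10 it fell at folds of 10.07 and 10.23, against 7.57 and 7.51 at Day0 and 6.67 and 7.23 at Day3. A region lost at Day10 can thus hold a listed peak with a fold that ranked within 100000 on an earlier day. The region at 139.3 kb of the Col1a2 window, described below, had Day10 folds of 9.6 and 9.3. Lost thus refers to rank and not to closed chromatin. Between Day0 and Day3, 0 of the 102 regions were gained and 0 lost, against 0.539% and 0.516% of all strong regions. With the regions strong on the relevant day as the base, the genome-wide shares were 0.934% gained and 0.889% lost. Between Day0 and Day10, 11 of the 102 were lost (against 7.98%) and 1 was gained (against 10.8%). Of the 70 regions strong in both Day0 libraries by both rules, the 11 lost made 15.7%, against 13.8% over the genome, which is near that background. Of the 52 strong in both Day10 libraries, the 1 gained made 1.92%, against 19.0%. Between Day3 and Day10, 3 of the 102 were lost (against 3.16% of all strong regions) and 1 was gained (against 7.74%). These were 5.56% of the 54 regions strong at Day3, against 5.47%, and 1 of the 52 strong at Day10, against 13.6%. The comparisons with Day0 share the Day0 libraries, and the gained region is the same in both counts against Day10.

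**Figure D3:**
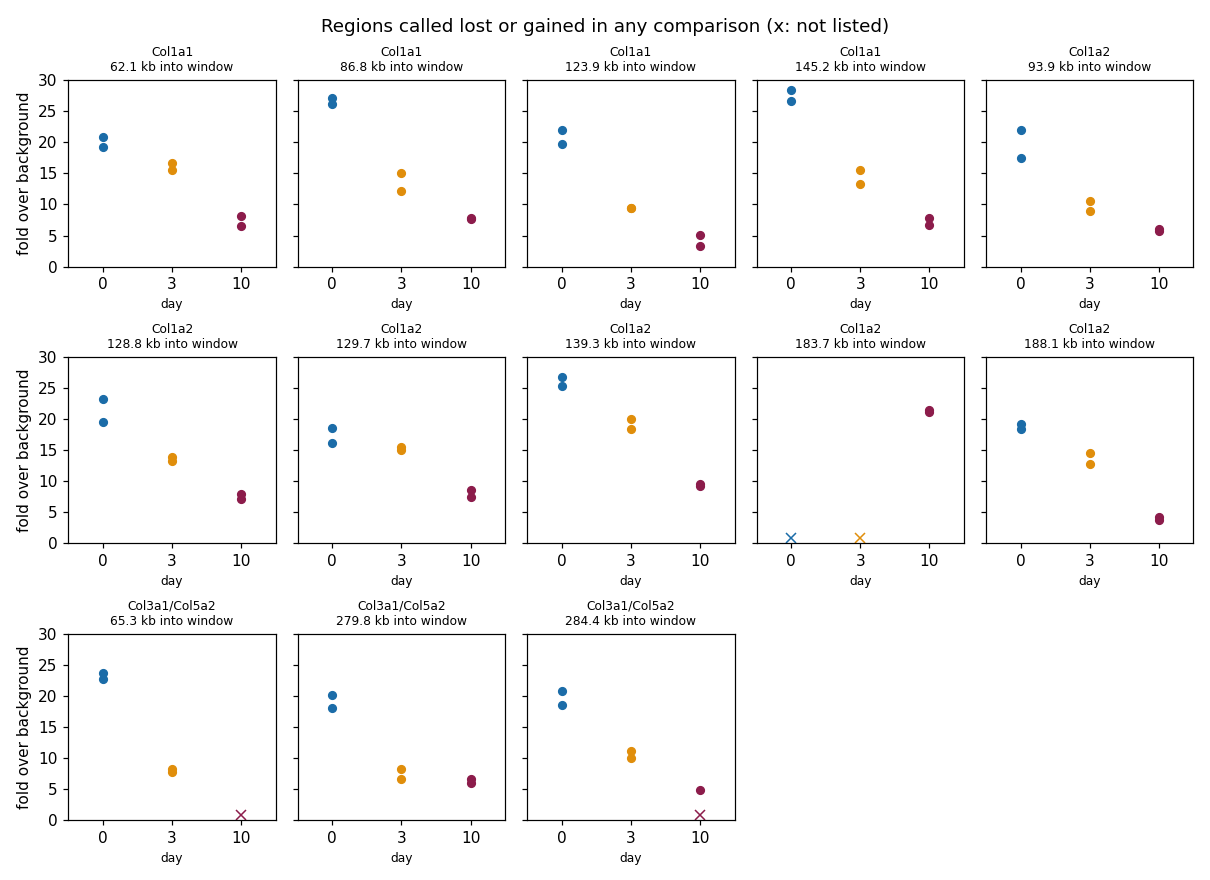
Fold over background by day in the 13 regions called lost or gained in any comparison, each named by window and distance from its start. Points are libraries and a cross marks a day with at least 1 library without a peak. The rule fixes that lost regions rank past 100000, or have no peak, at Day10. Day3 values mostly lie between, but regions called against Day3 were picked on them too, and nothing is read from that order.

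The 4 lost Col1a1 regions lay at 62.1, 86.8, 123.9 and 145.2 kb. In every window, lost regions were picked for ranks that were worse at Day10 than on the earlier day. Limma differences and p-values for that same comparison are therefore not further evidence of loss. At chr11:94894945-94895445 (145.2 kb) folds were 28.5 and 26.6 at Day0, then 15.6 and 13.3 at Day3, then 6.7 and 7.9 at Day10. Day3 lay between the other days, and the Day10 difference from Day0 was -1.84 (SE 0.13, limma adjusted p = 9.4e-05). At chr11:94873637-94874137 (123.9 kb) they were 19.8 and 22.0, then 9.5 and 9.5, then 3.4 and 5.1, a difference of -2.26 (SE 0.20, adjusted p = 0.00019).

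The other lost Col1a1 regions were called against different earlier days. At chr11:94811866-94812366 (62.1 kb) folds were 19.2 and 20.8 at Day0, then 15.6 and 16.7 at Day3, then 8.2 and 6.5 at Day10. Here Day3 did not pass against Day0 (log2 difference -0.20, SE 0.15, limma adjusted p = 0.31), and Day10 did (-1.38, SE 0.15, adjusted p = 0.00042). By rank the region was called lost against both earlier days, so the rule required it to rank within 50000 at Day3. At chr11:94836553-94837053 (86.8 kb), called lost against Day0 alone, folds were 26.2 and 27.2, then 12.2 and 15.0, then 7.7 and 7.9. Day3 was lower than Day0 there (-0.87, SE 0.13, limma adjusted p = 0.0041). Since the calls differ, nothing is read about timing from the contrast with the region at 62.1 kb. The Day10 values at 86.8 kb belong to overlapping peaks whose summits lie outside the region.

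The Col1a2 window lost 4 regions against Day0. At chr6:4587897-4588397 (188.1 kb) folds were 19.2 and 18.5, then 14.5 and 12.8, then 4.3 and 3.7, a Day10 difference from Day0 of -2.16 (SE 0.14, limma adjusted p = 6.7e-05). Day3 and Day0 there did not pass (-0.36, SE 0.14, adjusted p = 0.076). At chr6:4539020-4539520 (139.3 kb) folds were 26.8 and 25.4, then 20.0 and 18.4, then 9.6 and 9.3, lost against both earlier days, with differences of -1.39 (SE 0.10, adjusted p = 0.00011) from Day0 and -1.06 (SE 0.10, adjusted p = 0.00053) from Day3. The remaining ones were chr6:4528569-4529069 (128.8 kb; -1.43, adjusted p = 0.00018) and chr6:4493620-4494120 (93.9 kb; -1.66, adjusted p = 0.00026). A further region, chr6:4529439-4529939 (129.7 kb), was lost against Day3 alone, with folds of 18.6 and 16.2, then 15.6 and 15.0, then 8.6 and 7.4; Day0 replicate 2 ranked it 53250, just past the limit.

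The gained region, chr6:4583421-4583921 (183.7 kb), had no listed peak at Day0 or Day3 and folds of 21.1 and 21.4 at Day10, at ranks 37216 and 37274. It is the closest called region to the lost region at 188.1 kb. A region not listed has no value, so no fold change is given.

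The 3 lost regions of the Col3a1/Col5a2 window had lower folds already at Day3. At chr1:45315064-45315564 (65.3 kb) folds were 22.7 and 23.7 at Day0 but 8.3 and 7.8 at Day3, and neither Day10 library listed a peak. At chr1:45534110-45534610 (284.4 kb) they were 18.6 and 20.8, then 11.1 and 10.0, then 4.8 in Day10 replicate 1 and no listed peak in replicate 2. Neither entered the limma test, which needs a peak in all 6 libraries. At chr1:45529535-45530035 (279.8 kb) folds were 18.1 and 20.2, then 8.3 and 6.7, then 6.7 and 6.0, so Day3 and Day10 touched at 6.7 and both lay under Day0. The differences from Day0 were -1.25 at Day3 (SE 0.16, limma adjusted p = 0.0026) and -1.51 at Day10 (SE 0.16, adjusted p = 0.00036).

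The order of ranks, which needs no limit, gave a finer view of the 102 regions. Both Day3 ranks were worse than both Day0 ranks in 34 regions (33.3%, against 31.1% of all strong regions) and better in 45 (44.1%, against 42.3%). Both Day10 ranks were worse than both Day0 ranks in 45 (44.1%, against 41.2%) and better in 41 (40.2%, against 43.9%). Against Day3, both Day10 ranks were worse in 60 (58.8%, against 48.4%) and better in 24 (23.5%, against 36.1%).

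The windows differed in this count from each other. Day10 ranks were worse than Day0 ranks in 8 of 40 Col1a1 regions (20.0%), 22 of 40 Col1a2 regions (55.0%) and 15 of 22 Col3a1/Col5a2 regions (68.2%). They were better in 25, 10 and 6. Against Day3 they were worse in 16, 30 and 14 and better in 14, 5 and 5. These are counts of regions that can share a peak, with no test of the difference between windows.

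The size of the differences was tested by limma on the log2 fold of the strongest overlapping peak in the 172 regions with a peak in all 6 libraries (68, 73 and 31 by window), with p-values adjusted over all 114827 such regions. Of these 172, 109 (63.4%) take a value from a peak that another region also takes, against 35.6% of all, so 1 wide peak can enter several times. The fit was therefore also made on peaks with their summit in the region, with 31, 42 and 27 regions by window. Regions that lost their peak altogether are in neither fit.

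**Figure D4:**
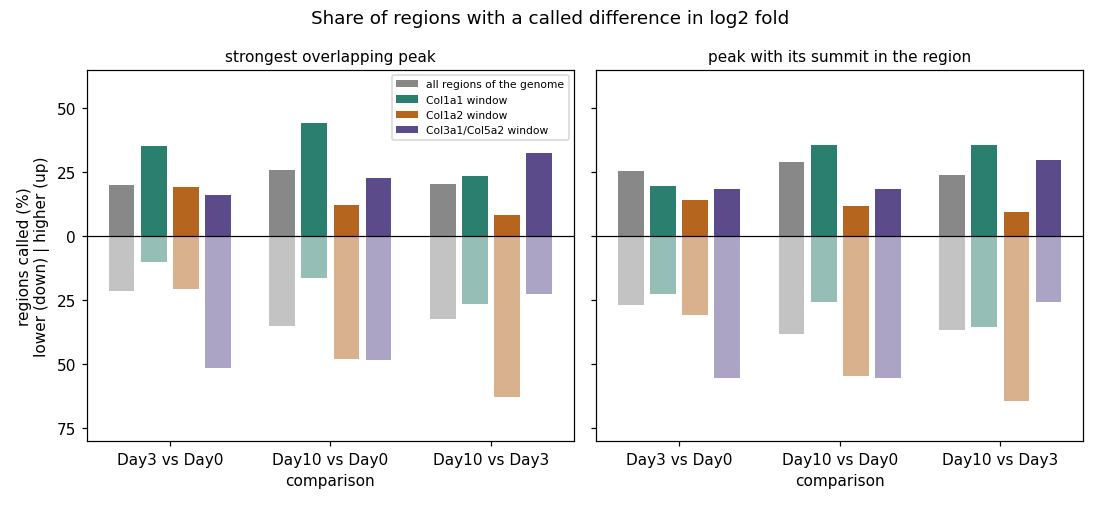
Share of tested regions called higher (up, dark) or lower (down, light) by limma at an adjusted p of 0.05, for all regions and for each window, with values from the strongest overlapping peak (left) or from peaks with a summit in the region (right). In the Day10 comparisons the downward Col1a2 bar is longer than the upward one in both panels, as it is for all regions. At Day3 the upward Col1a1 bar is longer than the downward one in the left panel only.

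Between Day3 and Day0, 43 of the 172 collagen regions were higher and 38 lower, against 20.0% and 21.3% of all regions; with summit values 17 were higher and 35 lower, against 25.3% and 27.0%. The share of higher among called was thus 53.1% in the first fit and 32.7% in the other. In the Col1a1 window 24 of 68 were higher and 7 lower (median log2 difference 0.24), but 6 and 7 of 31 with summit values (0.04). The Col1a2 window had 14 higher and 15 lower of 73 (median 0.00), and 6 and 13 of 42 with summit values (-0.02). The 15 lower became 7 without Day0 replicate 1, 8 without Day0 replicate 2, 9 without Day3 replicate 1 and 6 without Day3 replicate 2; the 14 higher became 8 without Day0 replicate 1. In the Col3a1/Col5a2 window 5 of 31 were higher and 16 lower (median -0.35), and 5 and 15 of 27 with summit values (-0.35); the median over all regions was 0.00. The 16 lower regions there became 10 without Day0 replicate 1, 9 without Day0 replicate 2, 10 without Day3 replicate 1 and 10 without Day3 replicate 2, and the 5 higher became 2 without Day3 replicate 2 and 3 without Day0 replicate 2 or Day3 replicate 1. The genome-wide number of lower regions was also smaller there, between 15263 and 17890 in place of 24479.

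Between Day10 and Day0, 46 of the 172 were higher and 61 lower, against 25.8% and 35.2% of all regions; with summit values 21 were higher and 46 lower, against 29.1% and 38.1%. Higher regions made 43.0% of those called in the first fit and 31.3% in the other. The Col1a2 window had 9 higher and 35 lower of 73 (median -0.37), and 5 and 23 of 42 with summit values (-0.41), while the median over all regions was -0.08. The Col3a1/Col5a2 window had 7 higher and 15 lower of 31 (median -0.33), and 4 higher without Day10 replicate 2; with summit values 5 and 15 of 27 were called (-0.31). The Col1a1 window had 30 higher and 11 lower of 68 (median 0.28), but 11 and 8 of 31 with summit values (0.05).

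Between Day10 and Day3, 32 of the 172 were higher and 71 lower, against 20.2% and 32.4% of all regions; with summit values 23 were higher and 45 lower, against 23.7% and 36.6%. The Col1a2 window had 46 lower and 6 higher of 73 (median -0.46, against -0.12 over all regions), and 27 and 4 of 42 with summit values (-0.38). Without Day10 replicate 1 the 46 became 31, without Day10 replicate 2 they became 29, and the median stayed at -0.43 and -0.45. Its 6 higher regions became 2, 3, 3 and 4 without Day10 replicate 1, Day10 replicate 2, Day3 replicate 1 and Day3 replicate 2. The Col1a1 window had 16 higher and 18 lower (median 0.02), 9 and 11 without Day10 replicate 1, 10 and 11 without Day10 replicate 2, and 11 lower under quantile normalization, and the Col3a1/Col5a2 window 10 and 7 of 31 (median -0.03). In the latter the 10 higher regions became 3 without Day10 replicate 1 and 4 without Day10 replicate 2, and the 7 lower became 4 without Day3 replicate 2 and 3 without Day10 replicate 2.

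Regions without a peak in every library move these splits. With a missing value set to the lowest fold of its library, higher regions made 57.6% of the called collagen regions at Day10 against Day0 and 71.7% of all called regions. At Day10 against Day3 these shares were 48.5% and 71.4%, in place of 31.1% and 38.4%. The median over all regions was then 0.36 and 0.30. At Day10 against Day0 the Col1a1 window then had 76 higher and 13 lower of 128 (median 0.53), the Col1a2 window 25 and 42 of 107 (-0.19), and the Col3a1/Col5a2 window 20 and 34 of 69 (-0.41). Against Day3 these were 54 and 23 (median 0.29), 19 and 57 (-0.41), and 23 and 22 (-0.06). The Col1a1 medians were thus above and near the median over all regions, and the Col1a2 and Col3a1/Col5a2 medians below it. At Day3 against Day0 the Col3a1/Col5a2 window had 6 higher and 29 lower (median -0.33), against a median over all regions of 0.05.

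A stretch of the Col1a2 window from 119.6 to 139.3 kb was singled out after its values were seen, and gets no test as a stretch. It holds the Col1a2 region with the best rank at Day0, chr6:4530787-4531287 (131.0 kb). The pileup of reads at its summit, recovered from the fold, was 93 and 94 at Day0, then 68 and 60 at Day3, then 34 and 39 at Day10. Its folds were 54.8 and 54.9, then 38.4 and 33.9, then 16.8 and 18.6, and its ranks 1242 and 1421, then 7852 and 12711, then 54194 and 47016. No 2 days overlapped. The log2 difference was -0.49 at Day3 (SE 0.08, limma adjusted p = 0.006) and -1.56 at Day10 (SE 0.08, adjusted p = 4.8e-05) against Day0.

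Of the 9 strong regions of the stretch, 7 were lower at Day10 than at Day0, where 41.3% of all tested strong regions were; since the stretch was picked for its values, nothing is read from that count. Besides those already described, they were chr6:4521049-4521549 (121.3 kb; -1.18, limma adjusted p = 0.0017), chr6:4525164-4525664 (125.4 kb; -1.13, adjusted p = 0.00038) and chr6:4536688-4537188 (136.9 kb; -1.34, adjusted p = 0.0004). The region at 129.7 kb was lower by -1.04 on the log2 scale (adjusted p = 0.00087). The exceptions were at 119.6 kb, with folds of 17.5 and 16.2, then 16.1 and 12.8, then 15.8 and 16.7, and at 127.0 kb, with 13.4 and 10.4, then 16.7 and 15.6, then 13.4 and 10.7.

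A few other regions, also picked after seeing values, show further courses. At chr6:4542233-4542733 (142.5 kb of the Col1a2 window) folds were 12.2 and 12.1 at Day0, then 31.1 and 30.6 at Day3, then 9.6 and 10.7 at Day10, with pileups of 20 and 20, then 55 and 54, then 19 and 22. Day3 stood above both other days, by 1.45 over Day0 (SE 0.10, limma adjusted p = 0.00051) and with Day10 lower than Day3 by -1.64 (SE 0.10, adjusted p = 0.00015). Day10 and Day0 did not pass (-0.19, SE 0.10, adjusted p = 0.14).

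At chr11:94858850-94859350 (109.1 kb of the Col1a1 window) folds were 8.2 and 8.1 at Day0, then 22.8 and 20.0 at Day3, then 23.0 and 23.2 at Day10. The later days lay together above Day0, by 1.51 (SE 0.11, limma adjusted p = 0.00057) and 1.59 (SE 0.11, adjusted p = 8.3e-05), and differed by 0.08 from each other (adjusted p = 0.56). It was not called gained, because its Day0 ranks, 94382 and 95181, lay within 100000. At chr11:94767511-94768011 (17.8 kb) folds were 21.0 and 20.2, then 23.9 and 24.5, then 33.1 and 31.6, a Day10 difference from Day0 of 0.73 (SE 0.08, adjusted p = 0.00046). The opposite course was seen at chr11:94824323-94824823 (74.6 kb), with 45.4 and 46.8, then 31.7 and 32.8, then 27.8 and 27.4 (-0.66, SE 0.06, adjusted p = 0.00022).

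In the Col3a1/Col5a2 window, chr1:45350498-45350998 (100.7 kb) had folds of 19.8 and 17.3 at Day0, then 23.4 and 26.7 at Day3, then 14.4 and 13.5 at Day10. Day3 was higher than Day0 by 0.54 (SE 0.12, limma adjusted p = 0.015; 0.069 without Day0 replicate 2 and 0.071 without Day3 replicate 2), and Day10 was lower than Day3 by -0.88 (SE 0.12, adjusted p = 0.0018). Close by, chr1:45355253-45355753 had 25.1 and 23.7, then 8.9 and 10.6, then 10.6 and 10.2. That region was lower on both later days, by -1.22 (SE 0.12, adjusted p = 0.0015) and -1.15 (SE 0.12, adjusted p = 0.00041). These neighbouring regions, picked after seeing values, took different courses, and nothing is read from that for the window.

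The largest differences per window and comparison were often values of a neighbouring peak. In the Col1a2 window the highest Day3 difference, 2.52 (limma adjusted p = 8.6e-05) at chr6:4543313-4543813, was the peak of the region at 142.5 kb, whose summit lies outside. The lowest Day10 difference from Day0, -3.31 (adjusted p = 3.7e-05) at chr6:4483073-4483573, likewise used Day0 peaks with summits outside. In the Col1a1 window the differences of 2.64 (Day10 against Day0, adjusted p = 3.8e-05, 79.4 kb), 2.08 (Day10 against Day3, adjusted p = 0.00069, 81.5 kb), 2.62 (Day3 against Day0, adjusted p = 0.00028, 111.6 kb) and -2.39 (Day10 against Day3, 111.6 kb, adjusted p = 0.00017) were of this kind. So was the lowest Day3 difference of the Col3a1/Col5a2 window, -2.11 (adjusted p = 0.00081) at 104.8 kb.

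Others rested on summits within the region, except at Day0 in the last one below. In the Col1a1 window chr11:94888486-94888986 (138.7 kb) had folds of 14.0 and 13.3, then 5.6 and 6.1, then 3.8 and 4.6, and was lower at Day3 than at Day0 by -1.11 (SE 0.14, limma adjusted p = 0.0024). In the Col1a2 window chr6:4485134-4485634 (85.4 kb) had 6.4 and 7.5, then 10.6 and 8.9, then 19.7 and 17.7, and was higher at Day10 than at Day3 by 0.91 (SE 0.15, adjusted p = 0.0037). In the Col3a1/Col5a2 window chr1:45338834-45339334 (89.1 kb) had 15.7 and 16.2, then 11.1 and 10.0, then 3.8 and 5.1, lower at Day10 by -1.77 (SE 0.16, adjusted p = 0.0002) from Day0. At 389.1 kb, chr1:45638823-45639323 had 9.3 and 9.8 from peaks with summits outside it, then 6.7 and 8.9, then 18.2 and 19.1, higher at Day10 than at Day3 by 1.24 (SE 0.16, adjusted p = 0.0013).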

How the data were processed

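ATAC-seq peaks of 6 libraries (3 days, 2 libraries each, grouped by sample title) were deposited as 1 list per library. The submitters' processing notes name Trim Galore, a read trimmer; which aligner and peak caller were run, with which settings, is not given in the sources used here, nor is a shift for the Tn5 cut. The deposited values, all the authors' own, are a whole-number score, the fold (ratio of pileup to background), −log10 of the p-value and of the q-value, and the summit. The deposited fold ratio equals (pileup + 1)/(background + 1) with 1 background per library, so whole pileups could be recovered for 100% of the peaks, within 0.01. Depth was estimated from that background and the smallest peak width, since total reads were not used here. The submitters' notes name mm10, but the lists hold scaffold names of GRCm39; positions are read as GRCm39, counted from 1, with no conversion. Planned lists of collagen-making and cartilage genes need an annotation of that build and were not used.

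Peaks on chromosomes 1 to 19, X and Y were put in order of the deposited −log10 p, with ties broken by fold and then position. Regions of 501 bases were set around summits, the best rank first. Limits of 50000 and 100000 defined gained and lost regions. limma 3.58.1 (R 4.3.3; lmFit, eBayes with trend) was fitted to log2 fold without pseudocount, centred on the median of regions listed in all 6 libraries, with Benjamini-Hochberg adjustment over those regions and a threshold of 0.05. The scripts were tested on simulated data. Tables and figures used Python 3.11.15, pandas 2.3.3, numpy 2.4.6 and matplotlib 3.10.9. Named regions are, per window, the 5 of best mean rank, those gained or lost, and the largest higher and lower difference per comparison; others are said to be picked after seeing values. The members and lists were chosen with earlier results of these data known. Alternatives were the summit or overlap rule alone, other rank limits, a −log10 q of 5 or more, quantile normalization, missing values at the lowest fold, a replicate block and each library left out; centring on strong regions was chosen after seeing the data.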

Additional observations from a re-analysis of the deposited data

How the results depend on the processing

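Counts of collagen regions gained or lost by rank moved with the rule. Genome-wide shares under the other rank rules are not given here, so nothing is read from these counts about the collagen regions in particular. With the summit rule alone, 7 were lost at Day3, 17 lost and 2 gained at Day10 against Day0, and 6 gained at Day10 against Day3. With no gap between the rank limits, 5 were gained and 11 lost at Day3, 11 gained and 21 lost at Day10 against Day0, and 4 gained and 12 lost against Day3. With limits of 25000 and 50000 these were 1 gained at Day3, 3 lost at Day10 against Day0, and 0 gained and 1 lost against Day3. Leaving out each library in turn gave 0 to 1 lost at Day3, and 1 to 2 gained at Day10 against either earlier day. In the limma counts, summit values gave 17 higher at Day3, 21 higher at Day10 against Day0 and 45 lower at Day10 against Day3. Missing values set to the lowest fold gave 121 of 304 higher at Day10 against Day0 (39.8%, against 53.1% of all regions). Against Day3 they gave 96 (31.6%, against 47.4%). Leaving out each library of the comparison gave 22 to 25 lower at Day3, and 14 to 28 higher and 43 to 65 lower at Day10 against Day3; fewer libraries enter those fits, and a day left with 1 is assumed to vary like the others. The cause of the other moves was not tested. The labels do not say whether libraries with equal replicate numbers share a culture or batch. Genome-wide deviations of same-numbered libraries correlated at 0.01 for each pair of days, which does not settle that. With a replicate block, 39 collagen regions were higher and 31 lower at Day3, 47 and 60 at Day10 against Day0, and 27 and 69 at Day10 against Day3. For the named regions, the 85 calls past the threshold were recomputed under the alternatives, which gave 799 values. Of these, 715 kept their direction and side of the threshold, 84 kept the direction but missed the threshold, and 0 reversed. An alternative whose fit did not include the region was left out of this tally. Calls resting on a peak with its summit outside the region were thus not checked with summit values. Folds come in steps of whole pileups, and total depth was estimated, which limits small differences.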
